A study of Mus musculus with 9 samples.

Results

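Ribosome biogenesis factors are the proteins that transcribe, modify, cut and fold ribosomal RNA and join it to ribosomal proteins in the nucleolus. A named set of 41 such genes was followed here across 2 mouse leukaemias and normal progenitors. Each gene was read from its brightest probe, judged by the mean of the 9 arrays. All 41 were measured, out of 21872 genes with a named probe, and all 41 were brighter than the median gene, whose mean was 7.53. Genes above that level are called the brighter genes here. Every value is a log2 intensity unless stated otherwise, so a difference of 1 is a doubling of the signal.

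The arrays (Agilent SurePrint G3 Mouse GE 8x60K, 1 colour) held total RNA of sorted bone marrow cells from C57BL/6 recipient mice, taken 1 month after transplantation. LeuB (also AE3) and LeuA (also AE1) recipients had been given spleen cells, each from 1 of 2 moribund mice of the genotype Tet2-/-:AE, that is, without Tet2 and with the leukaemia fusion AML1-ETO. WT recipients had been given wild-type bone marrow, so donor tissue and genotype cannot be told apart. All groups were sorted with a gate for granulocyte-monocyte progenitors (GMPs), which takes cells with Kit and CD16/32 and leaves out those with lineage markers, Sca1 or CD150. Each group has 3 arrays, named biological replicates in the labels. The 3 arrays of a leukaemia all descend from 1 primary mouse, and whether an array holds 1 recipient or a pool is not stated, and the p-values can only reflect how these arrays vary. One label field names LeuA for the LeuB arrays, whereas their titles and source names give LeuB, and the titles were followed. WT 1 to 3, LeuA 1 to 3 and LeuB 1 shared slide 1, and LeuB 2 and 3 lay on slide 2. No other group was on slide 2, so a fit with slide as a block reads LeuB from LeuB 1 alone. Slide 1 alone does the same, and neither setting can tell slide from the loss of LeuB 2 and LeuB 3.

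Tet2, the deleted gene, read 9.05, 8.98 and 8.98 in LeuB, 9.31, 9.45 and 9.38 in LeuA, and 9.29, 9.19 and 9.29 in WT. These are values of the brighter of its 2 probes. Its LeuB difference from WT was -0.25 on that probe and -0.10 in the mean of both. Whether either probe lies in the deleted part is not known, so these values check nothing about genotype. The sorted cells went against their GMP label in the leukaemic groups. Of 10 GMP and primary granule genes, 9 were lower in LeuB (median difference -7.26) and 9 in LeuA (median -7.38), Mpo, the neutrophil peroxidase, being at 7.57 in LeuB, 7.90 in LeuA and 18.24 in WT on average. The tenth, Kit, which the gate selects, averaged 12.38, 12.43 and 12.60 in LeuB, LeuA and WT. Fcgr3, the gene of CD16, which the gate also selects, was among the lower genes. It averaged 10.32, 9.97 and 11.75, lower by 1.43 in LeuB and 1.78 in LeuA. Of 9 measured erythroid genes, 9 were higher in LeuB (median 6.15) and 8 in LeuA (median 5.89). Their summed signal was 18.87 to 19.01 in LeuB and 18.55 to 18.88 in LeuA, against 12.80 to 13.42 in WT. The transcription factors Gfi1 and Irf8 averaged 6.74 and 6.55 in LeuB, 6.65 and 6.33 in LeuA, and 13.28 and 13.95 in WT, while the lowest value on any array is 5.66. Of 6 mast cell and basophil genes, 2 were higher and 4 lower in LeuB, and 2 were higher and 3 lower in LeuA (medians -0.69 and -0.15). The higher genes were Fcer1a and Cma1. Fcer1a, a chain of the IgE receptor, rose by 4.61 in LeuB and 7.34 in LeuA. Cma1, a mast cell chymase, rose by 4.42 and 5.59. The other genes went the other way in LeuB. Prg2 differed by -5.05 in LeuB and -4.94 in LeuA, Mcpt8 by -2.81 and -2.36, and Tpsb2 by -0.55 and -0.38. Cpa3 differed by -0.82 in LeuB and by 0.08 in LeuA, where it did not pass. The summed signal of the list was 13.74 to 14.28 in LeuB and 15.87 to 16.43 in LeuA, against 13.70 to 14.06 in WT. Fcer1a alone averaged 12.98 in LeuB, 15.71 in LeuA and 8.37 in WT. Of 4 measured B cell genes 2 were lower in each leukaemia (medians -0.39 and -0.71), and of 3 T cell genes 1 was higher and 1 lower in LeuB and 0 were called in LeuA (medians 0.01 and -0.04). The higher T cell gene, Cd3g, averaged 6.28 in LeuB and 6.05 in WT, near the lowest value on any array (5.66). Cd3g no longer passed when WT 1, WT 3, LeuB 2 or LeuB 3 was left out (count 0). Of 8 mature neutrophil genes, 3 were lower in LeuB and 6 in LeuA (medians -1.99 and -2.58). Those counts were 6 without WT 1 and 8 without LeuB 3 in LeuB, and in LeuA 2 without WT 2, WT 3, LeuA 1 or LeuA 2 and 3 without LeuA 3 or LeuB 2. The summed signal of this list was 10.04, 10.56 and 13.67 in LeuB 1 to 3, and 13.93, 15.41 and 15.36 in WT 1 to 3. In LeuA it was 11.11 to 11.36, so LeuB 3 and WT 1 stood apart from their groups. The part of cell type in the results below was not tested.

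Ribosome production starts with transcription of a long precursor RNA by RNA polymerase I. Small nucleolar ribonucleoproteins (snoRNPs) then guide chemical marks on it: box C/D particles methylate riboses, and box H/ACA particles turn uridines into pseudouridines. Separate sets of factors build the small and the large subunit, and many of these genes are known targets of the transcription factor MYC in growing cells. In leukaemia the pathway is known for NPM1, a nucleolar chaperone often mutated in human acute myeloid leukaemia.

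The set was mostly lower in both leukaemias, by small amounts. In LeuB against WT, 22 members were lower, 2 were higher and 17 did not pass (limma; the threshold was a p of 0.05 after Benjamini-Hochberg adjustment across all genes). The background was high: 42.3% of all genes were called in this comparison, 21.8% higher and 20.4% lower. Among the brighter genes, where every member lies, 63% were called, 33.4% higher and 29.6% lower. The members were called lower in 53.7% and higher in 4.88%, so they were called in all about as often as other bright genes, and mostly in 1 direction. In LeuA against WT, 19 members (46.3%) were lower, 1 (2.44%) was higher and 21 did not pass. There, 36.8% of all genes were called, 17.9% higher and 18.9% lower, and 57.9% of the brighter genes, 30.7% higher and 27.1% lower. Both comparisons share the 3 WT arrays. In bulk RNA, fewer cells of a type and less RNA per cell cannot be told apart.

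**Figure D1:**
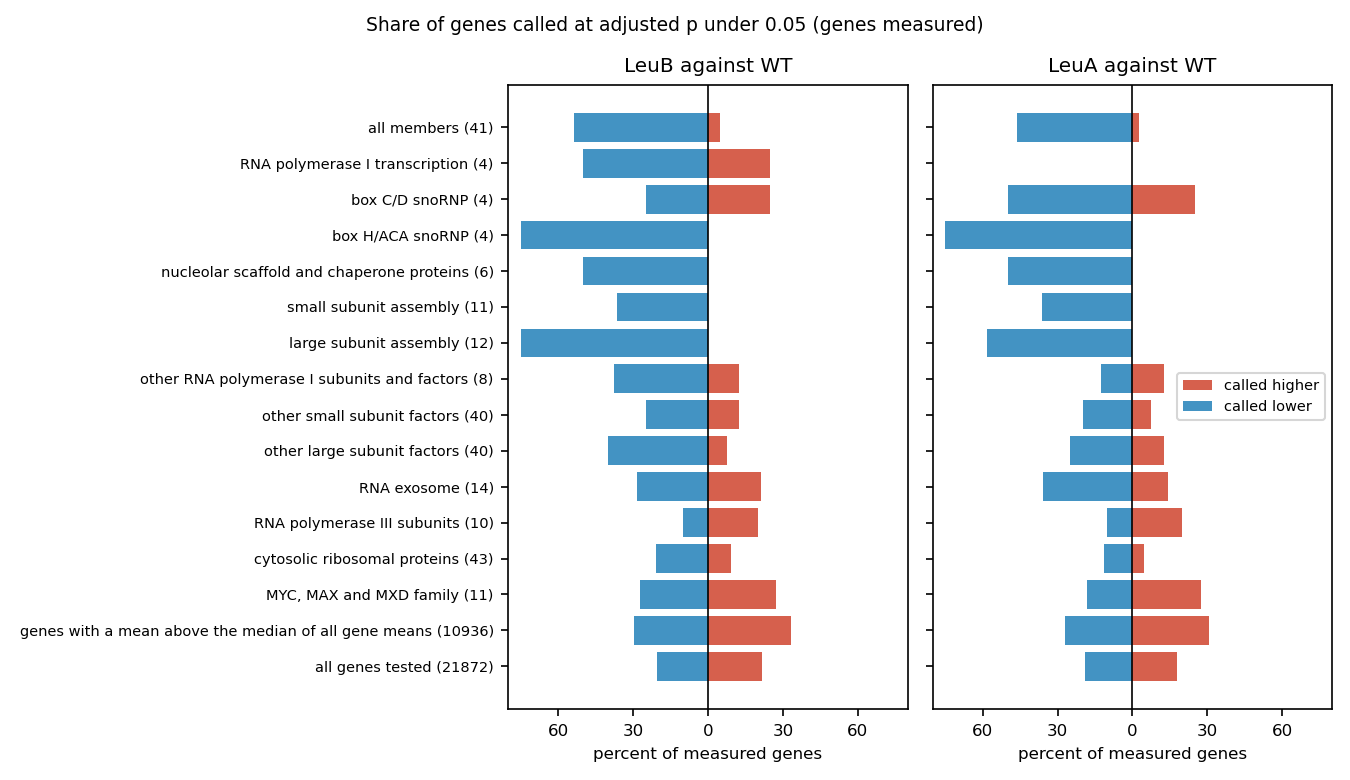
Percent of the measured genes of each list (number in brackets) called lower (blue, to the left) and higher (red, to the right) at an adjusted p under 0.05, for LeuB against WT (left panel) and LeuA against WT (right panel). The members reach 53.7% lower in LeuB and 46.3% in LeuA, while all genes and the brighter genes at the bottom divide almost evenly between the directions.

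The median difference of the 41 members was -0.29 in LeuB and -0.29 in LeuA, against -0.01 and 0.01 over all genes. Their differences ran from -1.15 to 0.57 in LeuB and from -1.03 to 0.62 in LeuA, and 32 and 35 of the 41 were below 0. The spread was narrow, with an SD over members of 0.32 in LeuB and 0.30 in LeuA, against 1.04 and 1.03 over all genes and 1.36 and 1.35 over the brighter genes. Only 1 member, Ncl, moved at least 2-fold in each leukaemia (2.44%), against 14.1% of all genes in LeuB and 13.5% in LeuA. In single arrays the members' median distance from the WT mean was -0.31, -0.29 and -0.26 in LeuB, -0.34, -0.29 and -0.10 in LeuA, and 0.04, -0.03 and 0.00 in WT. The leukaemic arrays all lay below the WT arrays, and LeuA 3 lay nearest to them. The 3 LeuB arrays did not overlap the 3 WT arrays and lay lower for 26 members (25.2% of all genes, 33.4% of the brighter genes) and higher for 3 (27.2% and 37%). The LeuA arrays did not overlap WT and lay lower for 20 members (24.7% and 32.7%) and higher for 1 (24.8% and 36%).

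**Figure D2:**
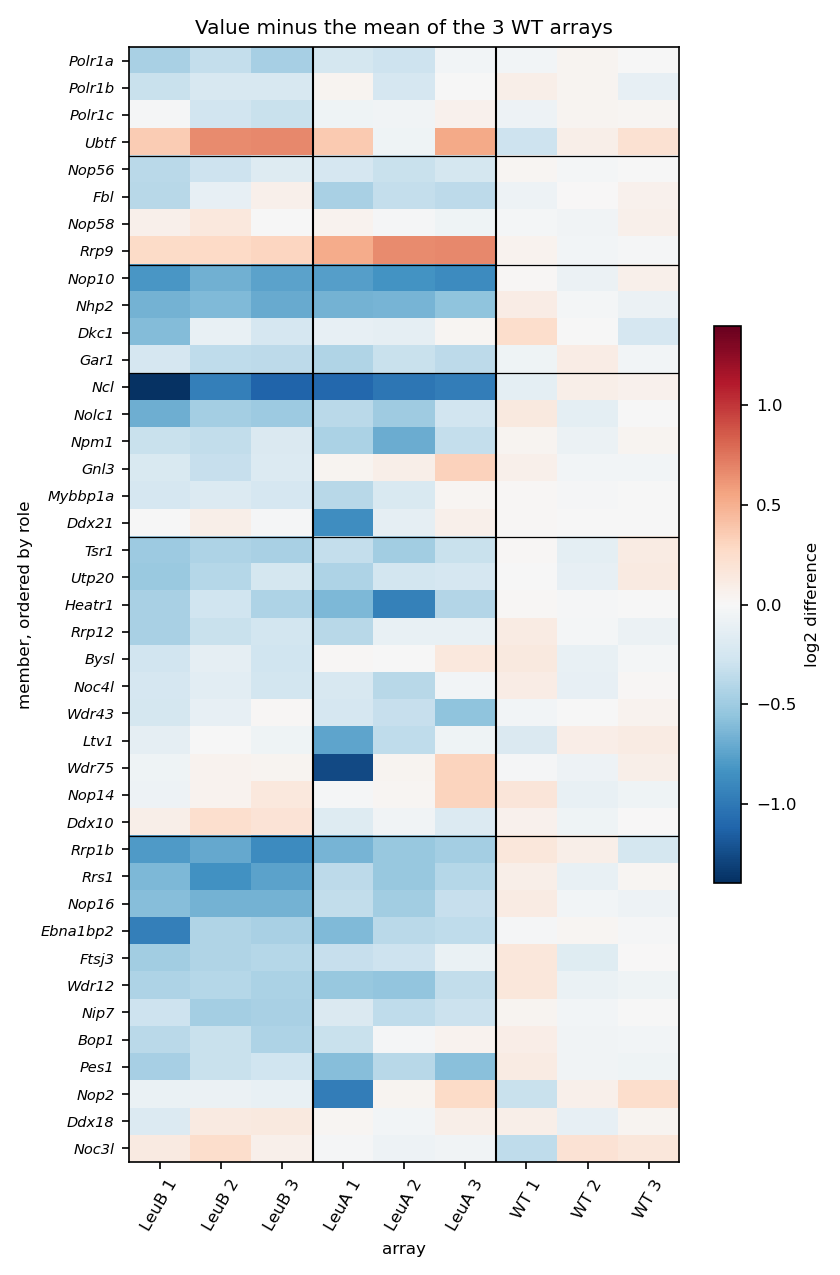
Each member's log2 value minus its mean over the 3 WT arrays (colour scale), for members ordered by role (rows, black lines between roles) in the 9 arrays (columns, LeuB, LeuA and then WT). Ncl, Nop10, Nhp2 and Rrp1b are blue in all 6 leukaemic arrays, Rrp9 is red in all 6, and LeuA 1 stands apart in Wdr75, Nop2 and Ddx21.

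Proliferation genes were mixed. Of 9 measured, 5 were higher (55.6%) and 2 lower (22.2%) in LeuB (median 0.55). In LeuA 4 were higher (44.4%) and 1 lower (11.1%), with a median of 0.22. Of the brighter genes 33.4% were higher and 29.6% lower in LeuB, and 30.7% and 27.1% in LeuA. Mki67, the Ki-67 antigen of cycling cells, averaged 15.35 in LeuB and 15.30 in LeuA, against 14.15 in WT. Mcm5, a subunit of the replicative helicase, fell by 0.79 in LeuB (limma adjusted p = 0.00012) and by 0.45 in LeuA (adjusted p = 0.0048), and Mcm2, another subunit, fell by 0.48 in LeuB (adjusted p = 0.00074). Without LeuA 1 and WT 1 together, the count of lower genes in LeuA was 0. The count of higher genes in LeuB was 3 on slide 1 alone.

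The RefSeq promoter table (GRCm38.p6) matched 36 of the 41 members. Fbl, Npm1, Rrp12, Rrs1 and Bop1 are named only. The 250 bases before each start were searched on both strands for the E-box CACGTG, which MYC and MAX bind, for TGTGGT with ACCACA, the RUNX site that the AML1 part of AML1-ETO recognises, and for CCGGAAG with CTTCCGG, an ETS factor site. The E-box was in 1 of 36 members (2.78%, Nop2) and in 6.86% of the 27025 genes in the table. With the 50 bases after the start included, it was in 7 members (19.4%) and in 8.09% of all genes. The RUNX letters were in 4 members (11.1%), Bysl, Heatr1, Nop56 and Pes1, against 15.9% of all genes. The ETS letters were in 9 members (25%), namely Ddx10, Gar1, Heatr1, Ltv1, Nhp2, Nip7, Nolc1, Nop2 and Polr1c, against 7.83% of all genes. A match is a description of letters and shows neither binding nor its absence.

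In all, 6 upstream windows are given, 5′ to 3′ on the gene's own strand and ending just before the start, with capitals on any of these motifs. Ncl (chr1:86359456-86359705, minus strand) and Nop10 (chr2:112261676-112261925, plus strand) had the largest mean falls. Nhp2 (chr11:51619523-51619772, plus strand) and Gar1 (chr3:129831397-129831646, minus strand) fell with Nop10 in the box H/ACA particle and hold the ETS letters 23 and 43 bases before the start. Rrp9 (chr9:106477059-106477308, plus strand) rose in both leukaemias, and Nop2 (chr6:125131633-125131882, plus strand) holds the single E-box, 60 bases before the start, and ETS letters at 38. The windows of Nhp2, Gar1, Rrp9 and Nop2 were chosen after their values were seen.
Ncl: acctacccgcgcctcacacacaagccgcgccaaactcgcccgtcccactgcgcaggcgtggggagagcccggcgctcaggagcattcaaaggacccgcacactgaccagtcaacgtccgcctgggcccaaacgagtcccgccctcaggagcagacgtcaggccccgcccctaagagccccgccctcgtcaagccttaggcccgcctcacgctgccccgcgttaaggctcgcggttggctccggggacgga
Nop10: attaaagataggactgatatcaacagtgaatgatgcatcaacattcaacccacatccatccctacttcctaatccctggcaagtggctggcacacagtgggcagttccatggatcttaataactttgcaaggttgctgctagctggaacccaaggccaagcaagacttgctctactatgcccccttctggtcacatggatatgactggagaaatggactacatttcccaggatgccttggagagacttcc
Nhp2: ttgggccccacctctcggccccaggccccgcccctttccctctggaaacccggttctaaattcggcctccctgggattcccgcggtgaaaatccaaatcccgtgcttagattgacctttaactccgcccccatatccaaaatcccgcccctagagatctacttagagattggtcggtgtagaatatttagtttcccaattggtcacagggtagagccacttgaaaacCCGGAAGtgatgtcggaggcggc
Gar1: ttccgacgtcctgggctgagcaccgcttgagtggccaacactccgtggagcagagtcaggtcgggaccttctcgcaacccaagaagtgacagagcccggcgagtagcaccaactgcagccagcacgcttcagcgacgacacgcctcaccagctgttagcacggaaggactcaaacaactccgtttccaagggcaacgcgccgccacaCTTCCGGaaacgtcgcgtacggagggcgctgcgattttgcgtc
Rrp9: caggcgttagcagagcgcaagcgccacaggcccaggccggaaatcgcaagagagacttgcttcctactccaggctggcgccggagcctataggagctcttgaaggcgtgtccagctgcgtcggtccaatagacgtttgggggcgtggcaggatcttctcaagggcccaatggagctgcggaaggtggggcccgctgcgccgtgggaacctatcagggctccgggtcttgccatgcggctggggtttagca
Nop2: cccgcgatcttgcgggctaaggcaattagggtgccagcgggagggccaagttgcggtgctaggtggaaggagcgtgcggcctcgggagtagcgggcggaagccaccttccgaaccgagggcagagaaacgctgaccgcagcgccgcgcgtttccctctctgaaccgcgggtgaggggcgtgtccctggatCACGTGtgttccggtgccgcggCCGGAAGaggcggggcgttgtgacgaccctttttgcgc

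Among the RNA polymerase I genes, the catalytic subunit was lower in LeuB and the promoter factor was higher. Polr1a, the largest subunit, read 11.83, 11.95 and 11.82 in LeuB, 12.04, 12.00 and 12.25 in LeuA, and 12.25, 12.33 and 12.28 in WT. The LeuB arrays lay below all WT arrays, whereas LeuA 3 overlapped them. Polr1a fell by 0.42 in LeuB (SE 0.08, limma adjusted p = 0.0019), and its difference in LeuA was -0.19 (adjusted p = 0.098, and 0.020 with -0.27 without LeuA 3). The second, dimmer probe of Polr1a gave -0.47 in LeuB (limma adjusted p = 0.056) and -0.37 in LeuA (0.15). Ubtf, which opens ribosomal DNA for the polymerase, read 15.54, 15.85 and 15.86 in LeuB, 15.55, 15.12 and 15.71 in LeuA, and 14.89, 15.26 and 15.40 in WT. All LeuB arrays were above all WT arrays, and LeuA 2 lay inside the WT range. Ubtf rose by 0.57 in LeuB (SE 0.18, limma adjusted p = 0.027), and its difference in LeuA was 0.28 (adjusted p = 0.29). Leaving out any of WT 1, WT 2, LeuB 2 and LeuB 3 ended that LeuB call (0.42 to 0.61, adjusted p 0.051 to 0.096). It was also lost where LeuB 1 alone stood for LeuB, with slide as a block or slide 1 alone (0.36).

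The other subunits gave weaker readings. Polr1b, the second largest subunit, was lower by 0.25 in LeuB (limma adjusted p = 0.046), with a difference of -0.06 in LeuA. Its second probe went the other way in LeuB (0.25, adjusted p = 0.15), and the mean of both probes gave 0.00. That probe averaged 6.92, below the median gene (7.53), against 11.04 for the probe used. The Polr1b call was also lost without any of WT 1, WT 2, LeuA 3, LeuB 1, LeuB 2 and LeuB 3 (-0.27 to -0.21, adjusted p 0.059 to 0.14). Centring each array on its median (-0.19, limma adjusted p = 0.11) and quantile normalization again (-0.22, 0.076) ended it too. Polr1c, which polymerases I and III share, differed by -0.20 in LeuB (limma adjusted p = 0.099, and 0.0080 with -0.29 without LeuB 1) and by -0.01 in LeuA.

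The box C/D particle was mixed. Fbl, fibrillarin, the methyltransferase of this particle, read 12.93, 13.21 and 13.39 in LeuB, 12.87, 12.99 and 12.95 in LeuA, and 13.25, 13.33 and 13.38 in WT. The LeuA arrays lay below all others but LeuB 1. Fbl fell by 0.39 in LeuA (SE 0.11, limma adjusted p = 0.019), and its difference in LeuB was -0.14 (adjusted p = 0.33). On slide 1 alone, where LeuB 1 is the lone LeuB array, Fbl was called lower in LeuB (-0.39, adjusted p = 0.015). In LeuA the call did not hold when WT 2, WT 3 or LeuA 1 was left out (-0.38 to -0.35, adjusted p 0.054 to 0.070).

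Nop56, a core protein of the particle, was lower by 0.28 in LeuB (limma adjusted p = 0.0061) and by 0.26 in LeuA (adjusted p = 0.010), and its second probe gave -0.31 and -0.32. Without LeuA 1 and WT 1 together, an alternative chosen after seeing the data, the LeuA call of Nop56 was lost (-0.26, adjusted p = 0.057). Nop58, its partner, differed by 0.07 in LeuB and -0.01 in LeuA. Rrp9, which belongs to the U3 particle that helps to cut the precursor, read 11.16, 11.17 and 11.19 in LeuB, 11.41, 11.55 and 11.56 in LeuA, and 10.94, 10.85 and 10.87 in WT. The groups did not overlap, and LeuA was highest. Rrp9 rose by 0.28 in LeuB (SE 0.06, limma adjusted p = 0.0046) and by 0.62 in LeuA (SE 0.06, adjusted p = 2.9e-05). The LeuB call was lost on slide 1 alone (0.27, adjusted p = 0.062).

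In the box H/ACA particle 3 of 4 members (75%) were lower in each leukaemia, against 29.6% of the brighter genes in LeuB and 27.1% in LeuA. Nop10, a small core protein, read 13.34, 13.48 and 13.40 in LeuB, 13.38, 13.32 and 13.27 in LeuA, and 14.17, 14.07 and 14.22 in WT. Every leukaemic array lay well below every WT array. Nop10 fell by 0.75 in LeuB (SE 0.07, limma adjusted p = 1.3e-05) and by 0.83 in LeuA (SE 0.07, adjusted p = 6.5e-06), to 59.5% and 56.1% of the WT signal. Nhp2, which binds the guide RNA with Nop10, read 14.67, 14.72 and 14.63 in LeuB, 14.67, 14.68 and 14.77 in LeuA, and 15.44, 15.31 and 15.25 in WT. Again no leukaemic array reached the WT arrays. Nhp2 fell by 0.66 in LeuB (SE 0.07, limma adjusted p = 3.6e-05) and by 0.63 in LeuA (SE 0.07, adjusted p = 5.3e-05).

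Gar1, which helps the enzyme to release its product, was lower by 0.32 in LeuB (limma adjusted p = 0.0044) and by 0.37 in LeuA (adjusted p = 0.0022). In LeuB that call was lost where LeuB 1 alone stood for LeuB, with slide as a block or slide 1 alone (-0.24). Dkc1, dyskerin, the pseudouridine synthase itself, read 9.71, 10.22 and 10.08 in LeuB, 10.21, 10.19 and 10.35 in LeuA, and 10.57, 10.31 and 10.08 in WT. The 3 groups overlapped, and WT 3 equalled LeuB 3. Its difference was -0.32 in LeuB (limma adjusted p = 0.12) and -0.07 in LeuA (adjusted p = 0.79). With slide as a block, where LeuB 1 alone stands for LeuB, the LeuB value was -0.61. These 4 proteins are also known as parts of telomerase.

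**Figure D3:**
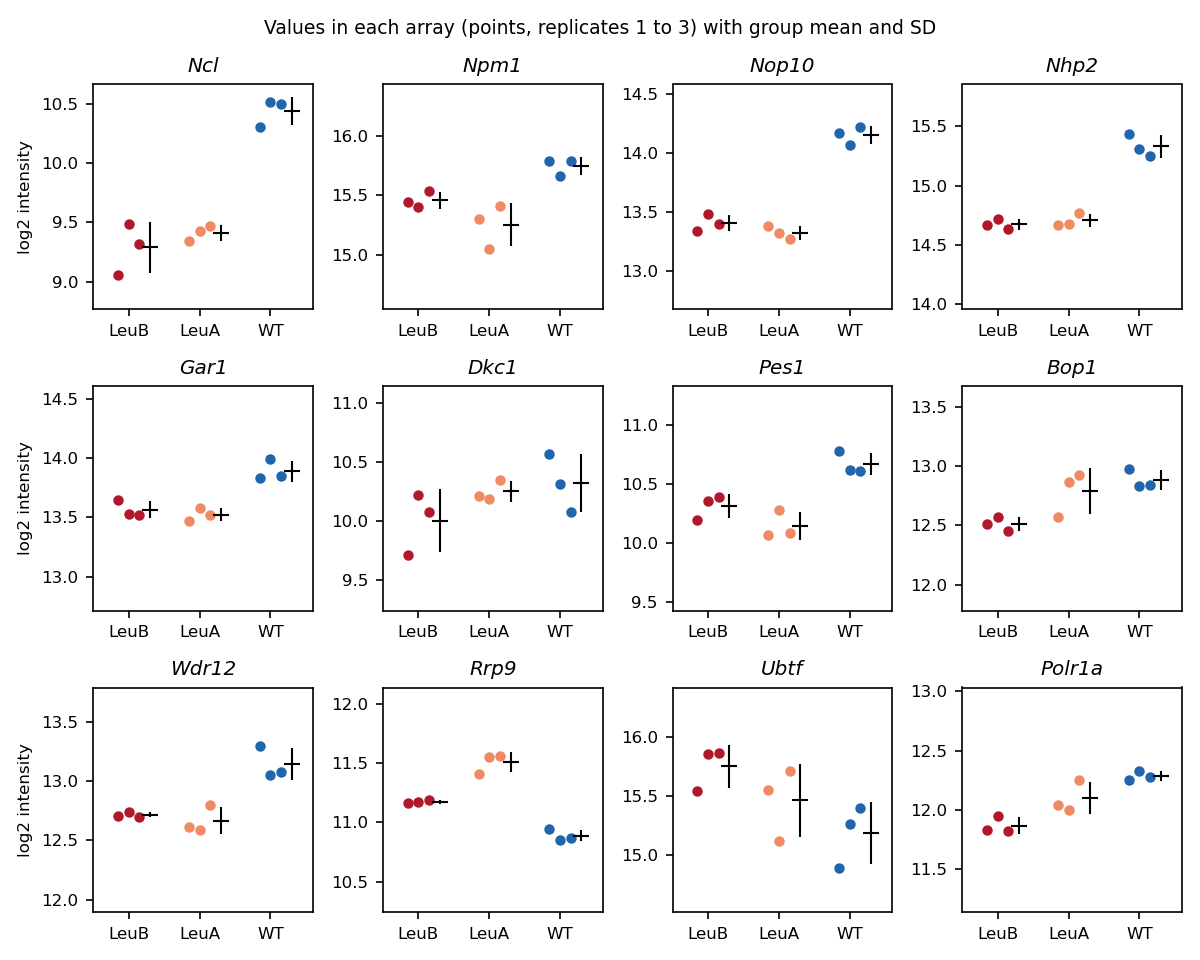
Log2 intensity in each array (points, replicates 1 to 3 from left to right) with the group mean and SD (black cross and bar) for 12 members, in LeuB, LeuA and WT. Each panel has its own axis. Nop10, Nhp2, Ncl and Gar1 show no overlap between leukaemic and WT arrays, while Dkc1 overlaps in all groups.

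The largest change of the whole set was in Ncl, nucleolin, an abundant nucleolar RNA-binding protein. Its values rest on 1 probe, and how well that probe reads the gene was not tested. Ncl read 9.06, 9.49 and 9.32 in LeuB, 9.34, 9.43 and 9.47 in LeuA, and 10.31, 10.52 and 10.50 in WT. The 6 leukaemic arrays lay below all WT arrays, and LeuB 1 was lowest. Ncl fell by 1.15 in LeuB (SE 0.11, limma adjusted p = 2e-05) and by 1.03 in LeuA (SE 0.11, adjusted p = 4.6e-05), to 45.0% and 48.9% of the WT signal. Npm1, nucleophosmin, a chaperone of the nucleolus, read 15.44, 15.40 and 15.54 in LeuB, 15.30, 15.05 and 15.41 in LeuA, and 15.79, 15.66 and 15.79 in WT. No leukaemic array overlapped WT. Npm1 was lower by 0.29 in LeuB (SE 0.10, limma adjusted p = 0.037) and by 0.49 in LeuA (SE 0.10, adjusted p = 0.0025).

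Leaving out WT 1, WT 3, LeuB 1 or LeuB 2 ended the LeuB call of Npm1 (-0.28 to -0.26, adjusted p 0.069 to 0.11). So did slide as a block, where LeuB 1 alone stands for LeuB (-0.31). Centring each array on its median (-0.22, limma adjusted p = 0.084) and quantile normalization again (-0.28, 0.05) ended that call too. The second probe of Npm1 gave -0.57 in LeuB (adjusted p = 0.0022) and -0.40 in LeuA (adjusted p = 0.017). Nolc1, a chaperone of snoRNPs, was lower by 0.55 in LeuB (limma adjusted p = 0.0010) and by 0.38 in LeuA (adjusted p = 0.011). Without WT 1 and LeuB 3 together the LeuA call of Nolc1 was lost (-0.31, adjusted p = 0.057), as it was without LeuA 1 and WT 1 together (-0.31, 0.086). Mybbp1a, a nucleolar partner of Myb, differed by -0.22 in LeuB and -0.19 in LeuA, and neither passed. Without LeuA 1 or LeuA 3 it passed in LeuB (-0.22, adjusted p 0.030 to 0.042), and without LeuA 3 in LeuA (-0.30, 0.014). The count of lower scaffold genes in LeuB was 3 of 6 (50%, against 29.6% of the brighter genes), and 5 without LeuA 1 or LeuA 3. The RNA helicase Ddx21 read 10.51 in LeuA 1 and between 11.25 and 11.46 in the other 8 arrays, and it passed in no comparison.

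Of the 11 members that build the small subunit, 4 (36.4%) were lower and none was higher in LeuB, and likewise in LeuA. Among the brighter genes 29.6% were lower in LeuB and 27.1% in LeuA, so the count of lower members is near that share. Heatr1, a scaffold of the early precursor, read 12.85, 13.02 and 12.87 in LeuB, 12.67, 12.36 and 12.89 in LeuA, and 13.32, 13.29 and 13.30 in WT. All leukaemic arrays lay below WT, and LeuA 2 was lowest. Heatr1 fell by 0.66 in LeuA (SE 0.12, limma adjusted p = 0.0016) and was lower by 0.39 in LeuB (SE 0.12, adjusted p = 0.026). The LeuB call did not survive leaving out WT 1, WT 2, WT 3, LeuB 1 or LeuB 3 (-0.39 to -0.36, adjusted p 0.061 to 0.078). Nor did it survive slide as a block, where LeuB 1 alone stands for LeuB (-0.45). With each array centred on its median it was lost as well (-0.32, limma adjusted p = 0.053). Tsr1, a late factor of the pre-40S particle, was lower by 0.47 in LeuB (limma adjusted p = 0.00099) and by 0.38 in LeuA (adjusted p = 0.0040).

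Utp20, a large protein of the same early particle as Heatr1, was lower by 0.39 in LeuB (limma adjusted p = 0.0095) and by 0.31 in LeuA (adjusted p = 0.031). The LeuA call of Utp20 was lost with each array centred on its median (-0.25, adjusted p = 0.071) and without WT 1, WT 3 or LeuA 1 (-0.31 to -0.24, 0.069 to 0.12). Rrp12, known from yeast for export of the subunit, was lower by 0.34 in LeuB (limma adjusted p = 0.019), a call lost without WT 1 or LeuB 1 (-0.29, adjusted p 0.051 to 0.068), and its difference in LeuA was -0.20. Wdr43 was lower by 0.38 in LeuA (limma adjusted p = 0.013) and differed by -0.12 in LeuB. With WT 1 or LeuB 1 left out, 2 members of this group passed as lower in LeuB, and without LeuB 1 another passed as higher.

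The other 6 did not pass in either leukaemia. Bysl and Noc4l, both assembly factors, differed by -0.22 and -0.21 in LeuB and by 0.05 and -0.21 in LeuA. Wdr75 read 10.17 in LeuA 1 and between 11.36 and 11.74 in the other 8 arrays. Ltv1 was also lowest in LeuA 1, at 11.53, while the other 8 arrays lay between 11.91 and 12.38. Without LeuA 3, Ltv1 (-0.54, adjusted p = 0.014) and Noc4l (-0.30, adjusted p = 0.034) passed as lower in LeuA. Without WT 2, Bysl passed in LeuB (-0.27, adjusted p = 0.044). Nop14 differed by 0.04 in LeuB and 0.12 in LeuA, and the helicase Ddx10 by 0.17 and -0.14. Without LeuB 1, Ddx10 passed as higher in LeuB (0.22, adjusted p = 0.032).

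Of the 12 members that build the large subunit, 9 (75%) were lower in LeuB and 7 (58.3%) in LeuA, with medians of -0.42 and -0.34 and none higher. Among the brighter genes 29.6% and 27.1% were lower. Rrp1b, a nucleolar assembly factor, read 9.21, 9.29 and 9.12 in LeuB, 9.35, 9.47 and 9.53 in LeuA, and 10.16, 10.09 and 9.76 in WT. The leukaemic arrays lay below WT without overlap, although WT 3 was low for its group. Rrp1b fell by 0.80 in LeuB (SE 0.11, limma adjusted p = 0.00023) and by 0.55 in LeuA (SE 0.11, adjusted p = 0.0028). Rrs1, which in yeast brings 5S RNA into the particle, read 11.31, 11.10 and 11.19 in LeuB, 11.58, 11.41 and 11.54 in LeuA, and 12.02, 11.84 and 11.97 in WT. The 3 groups did not overlap, with LeuB lowest. Rrs1 fell by 0.75 in LeuB (SE 0.08, limma adjusted p = 4.6e-05) and by 0.43 in LeuA (SE 0.08, adjusted p = 0.0019).

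Nop16 read 11.47, 11.40 and 11.40 in LeuB, 11.72, 11.58 and 11.74 in LeuA, and 12.18, 12.02 and 11.99 in WT. Its groups kept the same order without overlap. Nop16 fell by 0.64 in LeuB (SE 0.07, limma adjusted p = 8e-05) and by 0.38 in LeuA (SE 0.07, adjusted p = 0.0026). Nip7, a small rRNA processing factor, was lower by 0.41 in LeuB (limma adjusted p = 0.0011) and by 0.29 in LeuA (adjusted p = 0.0094). Ftsj3, an rRNA methyltransferase, was lower by 0.44 in LeuB (limma adjusted p = 0.0047), and its difference in LeuA was -0.24 (adjusted p = 0.090, and 0.031 to 0.043 without LeuA 3 or WT 2). Ebna1bp2, an early assembly factor, was lower by 0.61 in LeuB (limma adjusted p = 0.0052) and by 0.45 in LeuA (adjusted p = 0.028). Without LeuA 1, WT 1, WT 2 or WT 3 the LeuA call of Ebna1bp2 was lost (-0.46 to -0.37, adjusted p 0.064 to 0.095).

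Pes1, Bop1 and Wdr12 form the PeBoW complex, which is needed to cut the spacer next to the 28S RNA. Pes1 read 10.20, 10.36 and 10.39 in LeuB, 10.07, 10.28 and 10.09 in LeuA, and 10.78, 10.62 and 10.61 in WT. All leukaemic arrays were below WT. Pes1 fell by 0.36 in LeuB (SE 0.09, limma adjusted p = 0.0080) and by 0.52 in LeuA (SE 0.09, adjusted p = 0.00086). Wdr12 fell by 0.42 in LeuB (limma adjusted p = 0.0028) and by 0.48 in LeuA (adjusted p = 0.0015), and its second probe by 0.50 and 0.26. Bop1 read 12.51, 12.57 and 12.45 in LeuB, 12.57, 12.87 and 12.93 in LeuA, and 12.98, 12.83 and 12.84 in WT. LeuB was low throughout, and in LeuA the low array was LeuA 1. Bop1 was lower by 0.37 in LeuB (SE 0.10, limma adjusted p = 0.012) and differed by -0.09 in LeuA (adjusted p = 0.56). Leaving out WT 1 and LeuB 3 together ended the LeuB call of Bop1 (-0.30, adjusted p = 0.12). So did slide as a block, where LeuB 1 alone stands for LeuB (-0.38).

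The remaining 3 did not pass. Nop2, an rRNA methyltransferase, read 12.13 in LeuA 1 and 12.78 in WT 1, and between 12.99 and 13.37 in the other 7 arrays. Noc3l was lowest in WT 1, at 9.05, and between 9.34 and 9.65 in the others. Without WT 1 and LeuB 3 together, Noc3l passed as lower in LeuA (-0.22, adjusted p = 0.047). The helicase Ddx18 differed by 0.02 in each leukaemia.

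**Figure D4:**
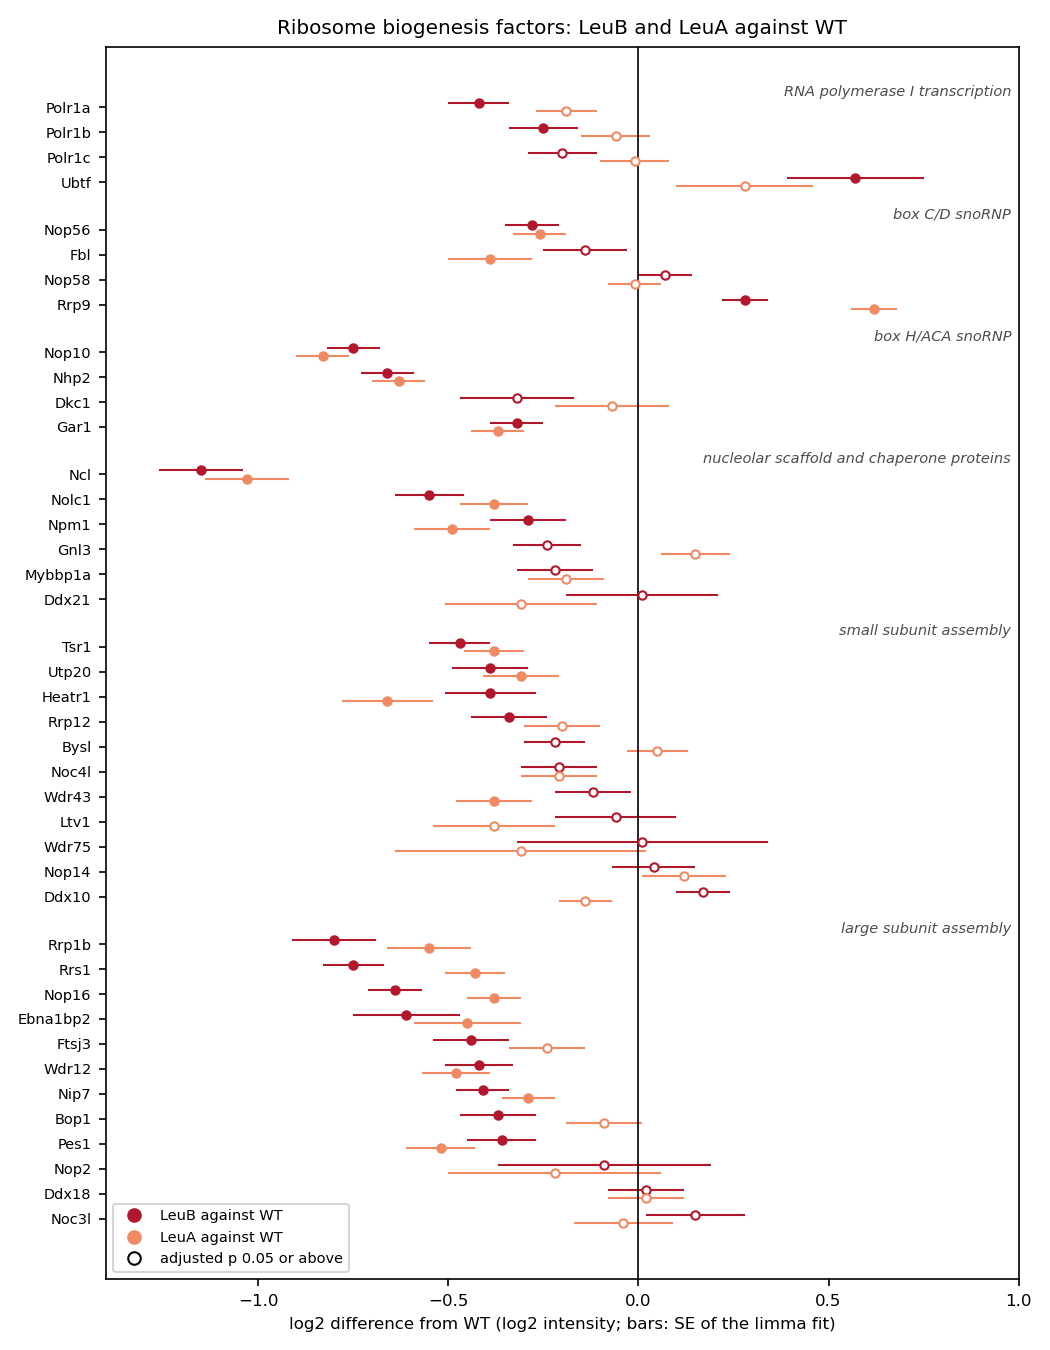
Log2 difference from WT (horizontal axis, bars are the SE of the limma fit) for the 41 members by role, in LeuB (dark red) and LeuA (orange). Filled points passed an adjusted p of 0.05 and open points did not. Most points lie between 0 and -0.8, Ncl lies beyond -1, and Rrp9 and Ubtf stand on the right.

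Between the leukaemias few members were called. In LeuB against LeuA, 1 member was higher (2.44%) and 3 were lower (7.32%), with a median difference of -0.03 and a range from -0.39 to 0.32. The median absolute difference was 0.19 for the members, 0.19 for the brighter genes and 0.13 over all genes. Of all genes 12.3% were called, 6.91% higher and 5.36% lower, and of the brighter genes 20.6%, 11% higher and 9.56% lower. The arrays of both leukaemias did not overlap for 2 members that were higher in LeuB (16.4% of all genes, 21.2% of the brighter genes) and 9 that were lower (13.8% and 20.6%). Rrp9 was lower by 0.34 in LeuB (SE 0.06, limma adjusted p = 0.0087), with the values given above. Gnl3, nucleostemin, a nucleolar GTPase of growing cells, read 11.32, 11.21 and 11.34 in LeuB, 11.57, 11.61 and 11.86 in LeuA, and 11.60, 11.50 and 11.50 in WT. LeuB was below the other 2 groups, which overlapped. Gnl3 was lower by 0.39 in LeuB against LeuA (SE 0.09, limma adjusted p = 0.020). Against WT it differed by -0.24 in LeuB (adjusted p = 0.052, and 0.020 to 0.049 without LeuA 3 or LeuA 1) and by 0.15 in LeuA.

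Rrs1 was lower by 0.31 in LeuB against LeuA (SE 0.08, limma adjusted p = 0.036). Ddx10 read 9.63, 9.79 and 9.74 in LeuB, 9.37, 9.50 and 9.36 in LeuA, and 9.61, 9.49 and 9.55 in WT. LeuB lay above LeuA and WT without overlap. Ddx10 was higher by 0.31 in LeuB against LeuA (SE 0.07, limma adjusted p = 0.022). Of the 3 LeuB arrays, 2 lay on slide 2. With slide as a block, LeuB 1 alone stands for LeuB, and the calls were lost. The values were then -0.35 for Rrp9, -0.36 for Gnl3, -0.21 for Rrs1 and 0.22 for Ddx10. Leaving out 1 array also ended the call of Gnl3 (without LeuB 2, -0.35, 0.085), of Rrs1 (without LeuA 1, LeuA 3, LeuB 2, LeuB 3 or WT 3, -0.31 to -0.27, 0.062 to 0.14) and of Ddx10 (without LeuA 1, LeuA 3, LeuB 2 or LeuB 3, 0.27 to 0.30, 0.062 to 0.091).

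For the other members, the direct comparison gave no call. Ncl differed by -0.12 in LeuB against LeuA (95% confidence interval -0.37 to 0.13), which does not show that the leukaemias are alike. Without LeuB 1, Polr1c (-0.27, adjusted p = 0.023), Fbl (0.37, 0.014), Nop16 (-0.28, 0.042) and Wdr43 (0.32, 0.048) passed. Without LeuA 1, Bop1 passed (-0.39, adjusted p = 0.015), and without WT 1, Bysl (-0.27, 0.048) and Nop16 (-0.26, 0.040).

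Genes around the set went both ways. Of 8 other measured RNA polymerase I subunits and factors, 1 was higher (12.5%) and 3 were lower (37.5%) in LeuB. In LeuA 1 was higher and 1 lower (12.5% each). Of all genes 21.8% were higher and 20.4% lower in LeuB, and 17.9% and 18.9% in LeuA. Of the brighter genes these shares were 33.4% and 29.6% in LeuB, and 30.7% and 27.1% in LeuA. The promoter factor genes Taf1b and Taf1d went opposite ways: Taf1b was higher by 0.80 in LeuB (limma adjusted p = 0.00073) and by 0.41 in LeuA (0.035), and Taf1d was lower by 0.53 and 0.55 (0.0013 and 0.0012). The LeuA call of Taf1b was lost without any of WT 1, WT 2, WT 3, LeuA 2 and LeuA 3 (0.34 to 0.45, adjusted p 0.052 to 0.12). Without LeuB 1 there were 2 higher genes in LeuB, and without LeuA 3 or LeuB 1 there were 2 lower genes in LeuA. Of 10 polymerase III subunits, 2 were higher (20%) and 1 lower (10%) in each leukaemia, both under the shares of the brighter genes. Polr3gl, an alternative subunit of that enzyme, rose by 1.62 in LeuB (limma adjusted p = 3.1e-07) and by 1.81 in LeuA (1.4e-07).

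The polymerase III counts depended on single arrays. The higher count in LeuB was 4 without LeuB 1 and 1 without WT 2, WT 3 or LeuB 2. The higher count in LeuA was 1 without WT 2, WT 3, LeuA 1 or LeuA 3. The lower count in LeuA was 0 without WT 2, WT 3, any LeuA array, LeuB 2 or LeuB 3. With each array centred on its median, which shifts all differences from WT up by 0.0646 in LeuB and 0.0633 in LeuA, 6 polymerase III subunits were higher and 1 lower in LeuB, and 2 and 0 in LeuA.

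Among 40 further small subunit factors, 5 were higher and 10 lower in LeuB (12.5% and 25%), and 3 were higher and 8 lower in LeuA (7.5% and 20%). All these shares are under those of the brighter genes (33.4% and 29.6% in LeuB, 30.7% and 27.1% in LeuA). With arrays centred on their median, the counts became 10 higher and 5 lower in LeuB, and 6 higher and 5 lower in LeuA. The direction of this list thus depends on the scaling. Riok2, a kinase of pre-40S maturation, rose by 2.02 in LeuB (limma adjusted p = 2.8e-07) and by 2.02 in LeuA (2.9e-07), more than any member moved. Dimt1, an rRNA methyltransferase, was higher by 0.27 in LeuB (limma adjusted p = 0.040) and by 0.38 in LeuA (0.0097), and its LeuB call was lost without any of the 9 arrays except LeuA 2 and LeuB 2 (0.18 to 0.31, 0.052 to 0.13). Wdr46 fell by 0.65 and 0.62 (limma adjusted p = 0.00037 and 0.00053) and Rrp7a by 0.45 and 0.36 (0.00061 and 0.0027) in LeuB and LeuA, Rrp7a losing its LeuA call in the mean of all its probes (-0.18, 0.092). The higher count in LeuB was 9 without LeuB 1, 2 without WT 2, and 3 without WT 3 or LeuB 3, and that in LeuA was 6 without WT 1 or LeuB 1. The lower count in LeuB was 6 without WT 1 and 5 without WT 3, LeuB 2 or LeuB 3. With slide as a block, 6 were higher in LeuA.

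Of another 40 large subunit factors, 3 were higher and 16 lower in LeuB (7.5% and 40%), and 5 were higher and 10 lower in LeuA (12.5% and 25%). Of the brighter genes, 29.6% were lower in LeuB and 27.1% in LeuA, so the share lower in LeuA is near that of all brighter genes. Their medians, -0.12 and -0.10, were nearer to 0 than those of the 12 members. Centring gave 8 higher and 13 lower in LeuB, and 8 higher and 7 lower in LeuA. Wdr18, of a complex that frees the large particle from the nucleolus, fell by 1.09 in LeuB (limma adjusted p = 2.6e-06) and by 0.88 in LeuA (1.3e-05). Rsl24d1 fell by 0.55 and 0.46 (limma adjusted p = 9.3e-05 and 0.00034), while the helicases Ddx24 (0.90 and 0.95, 8.4e-07 and 6e-07) and Ddx55 (0.79 and 0.65, 1.5e-05 and 6.3e-05) rose in LeuB and LeuA. Without WT 1, the higher count in LeuB was 5.

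Of 14 genes of the RNA exosome, which trims the ends of precursors, 3 were higher (21.4%) and 4 lower (28.6%) in LeuB. In LeuA 2 were higher (14.3%) and 5 lower (35.7%). Of the brighter genes 33.4% were higher and 29.6% lower in LeuB, and 30.7% and 27.1% in LeuA. The lower shares of the exosome are near these. Exosc8 rose by 0.80 in LeuB (limma adjusted p = 1.3e-05) and by 1.09 in LeuA (1.4e-06), whereas Exosc5 fell by 0.95 (6.5e-07) and 1.00 (4.6e-07). Exosc6 fell by 0.62 and 0.48 (limma adjusted p = 3.9e-05 and 0.00025). Exosc10, a nuclear exonuclease of the complex, was higher by 0.41 in LeuB (limma adjusted p = 0.015) and by 0.62 in LeuA (0.0016). Its LeuB call was lost without WT 2 or LeuB 3 (0.33 to 0.37, adjusted p 0.055 to 0.058), and in both cases the higher count in LeuB was 1. The call was also lost with slide as a block, where LeuB 1 alone stands for LeuB (0.43).

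Cytosolic ribosomal protein genes had medians of -0.05 in LeuB and -0.04 in LeuA. They were bright, with a summed signal of 22.39 to 22.42 in WT, and the highest value on any array is 18.24. Whether signals near that top value are compressed was not tested. Of 43 measured, 4 were higher (9.3%) and 9 lower (20.9%) in LeuB, and 2 (4.65%) and 5 (11.6%) in LeuA. These shares are under those of the brighter genes (33.4% and 29.6% in LeuB, 30.7% and 27.1% in LeuA). Centring gave 5 higher and 4 lower in LeuB, and 7 higher and 3 lower in LeuA. Rps2 rose by 0.31 and 0.40 (limma adjusted p = 0.0013 and 0.00027), and Rpsa fell by 0.58 and 0.35 (0.00013 and 0.0033) in LeuB and LeuA. Rplp1 was higher by 0.18 and 0.27 (limma adjusted p = 0.031 and 0.0050), and Rps6 was lower by 0.38 and 0.37 (0.016 and 0.021). Rplp1 lost its LeuB call without any WT array, LeuB 2 or LeuB 3 (0.16 to 0.20, adjusted p 0.056 to 0.12). Rps6 lost it without WT 2 (-0.34, 0.059), and lost its LeuA call without WT 1, WT 2, LeuA 2 or LeuA 3 (-0.37 to -0.27, 0.053 to 0.075).

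Counts of ribosomal protein genes moved with single arrays. In LeuB the higher count was 2 without WT 1, LeuB 1 or LeuB 3 and 1 without WT 2, WT 3 or LeuB 2, and the lower count was 3 without WT 1 or LeuB 2 and 5 without WT 2. In LeuA the lower count was 2 without WT 1, WT 2 or LeuA 3 and 3 without WT 3. Whether these probes also read the many near-identical copies of ribosomal protein genes was not tested.

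The MYC family, whose members compete for MAX on E-boxes, held 3 higher and 3 lower genes of 11 in LeuB (27.3% each). In LeuA it held 3 higher (27.3%) and 2 lower (18.2%). None of these shares is above that of the brighter genes (33.4% and 29.6% in LeuB, 30.7% and 27.1% in LeuA). Myc read 11.98, 12.00 and 12.01 in LeuB, 12.33, 12.04 and 12.02 in LeuA, and 12.12, 12.26 and 12.49 in WT. LeuB lay below all WT arrays, and LeuA overlapped them. Myc differed by -0.30 in LeuB (SE 0.11, limma adjusted p = 0.058) and by -0.16 in LeuA (adjusted p = 0.33). Without WT 1 or LeuA 1 the LeuB difference passed (-0.38 to -0.30, adjusted p 0.027 to 0.033), and without both, the LeuA difference did too (-0.34, 0.026). Max was higher by 0.63 in LeuB (limma adjusted p = 0.00058) and by 0.31 in LeuA (0.031), the LeuA call being lost without any WT array, LeuA 2 or LeuA 3 (0.27 to 0.34, 0.052 to 0.10).

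Mxd1 and Mxd3, which oppose MYC at its sites, were higher in both leukaemias. Mxd1 rose by 0.97 in LeuB (limma adjusted p = 6.1e-07) and by 0.80 in LeuA (2.6e-06), and Mxd3 by 0.89 (1.3e-05) and 0.69 (8.2e-05). Mlx, a partner of other members of the family, fell by 0.76 (limma adjusted p = 0.00035) and 0.61 (0.0016). Mycn averaged 6.05, 5.87 and 6.66 in LeuB, LeuA and WT, near the lowest value on any array (5.66). Whether its probe is above background is not known, so no difference is given. The lower counts above include it, and with dim genes left out the lower count in LeuA was 1.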

How the data were processed

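The deposited log2 intensities of 37877 probes on 9 arrays, which run from 5.66 to 18.24, were used as the authors gave them. The submitters' processing notes name the tools RMA, affy and limma and give neither versions nor roles. Background correction and detection flags are not given in the sources used here. The values were already on a common distribution: array medians lay at 7.02 to 7.04, and quantile normalization again moved no value by more than 0.06. Precision is limited by having 3 arrays per group.

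Probes were named by the platform annotation supplied with the series: 24877 had 1 symbol and 13000 had none, and 24606 were matched to RefSeq by gene identifier. For each of 21872 genes the brightest probe, by its mean on the 9 arrays, was kept. More than 1 probe was on offer for 2637 genes and for 5 members. Group means were fitted over all 9 arrays with limma 3.58.1 in R 4.3.3 (lmFit and eBayes), giving 6 residual and 3 prior degrees of freedom. Two-sided p-values were adjusted over all genes by Benjamini-Hochberg. A gene was called at an adjusted p under 0.05. The steps were tested on simulated data.

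The members and lists were chosen with earlier results of these data known. Values in every array were given for the 6 largest called rises and falls against WT, the 4 largest between the leukaemias, and always for Polr1a, Ubtf, Fbl, Ncl, Npm1, Dkc1 and Bop1. From each pathway list, up to 2 genes per direction that were called in both leukaemias were named, and Myc, Mycn, Max and Tet2 always. The summed signal of a list is log2 of its summed linear intensities.

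Same-numbered arrays of different groups did not deviate together: over 9 pairs the correlation of deviations from group means ran from -0.0407 to 0.103, with 1 over 0.1, and arrays were therefore not treated as pairs. The 19 alternatives covered slide, a replicate block, probe choice, dim genes, normalization, centring, the variance model and left-out arrays. Of these, leaving out LeuA 1 and WT 1 together was added after the data were seen.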

Additional observations from a re-analysis of the deposited data

Results flagged for a closer look

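Rrp9, Gnl3, Rrs1 and Ddx10 stood out because the direct test of LeuB against LeuA passed for them, and both leukaemias were set against the same WT arrays. Rrp9 differed by -0.34 (limma adjusted p = 0.0087), Gnl3 by -0.39 (0.020) and Rrs1 by -0.31 (0.036), lower in LeuB, and Ddx10 by 0.31 (0.022), higher in LeuB. In this comparison 12.3% of all genes were called. The Rrp9 difference is the gap between a rise of 0.28 in LeuB and a rise of 0.62 in LeuA against WT. That of Rrs1 is the gap between falls of 0.75 and 0.43. Gnl3 (-0.24 in LeuB and 0.15 in LeuA) and Ddx10 (0.17 and -0.14) passed against WT in neither leukaemia. Their calls were lost with slide as a block, where LeuB 1 alone stands for LeuB, so an effect of slide was not tested.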

How the results depend on the processing

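Over 19 alternatives, 16 of the 24 members called in LeuB against WT passed in every one, as did 15 of 20 in LeuA against WT and 0 of 4 in LeuB against LeuA. Another 7, 6 and 7 members passed in at least 1 alternative only. The count higher in LeuB against WT, 2 members, was 1 with slide as a block, 0 on slide 1 alone, 1 without WT 1 and LeuB 3 together, and 1 without LeuA 1 and WT 1 together, the last setting being chosen after seeing the data. The count higher in LeuB against LeuA, 1 member, was 0 under each of those 4 settings. The count lower in LeuB against LeuA, 3 members, was 1 with slide as a block, 0 on slide 1 alone, 1 without WT 1 and LeuB 3 together, and 5 with dim genes left out. With slide as a block, 19 members were lower in LeuB against WT and 19 in LeuA against WT. Leaving out 1 array at a time gave 1 to 3 higher (1 without WT 1, WT 2, LeuB 2 or LeuB 3) and 18 to 24 lower in LeuB against WT, and 1 higher and 16 to 24 lower in LeuA against WT. In LeuB against LeuA it gave 0 to 3 higher (0 without LeuA 1, LeuA 3, LeuB 2 or LeuB 3, and 3 without LeuB 1) and 1 to 5 lower (1 without LeuB 2, and 5 without WT 1 or LeuB 1). The Polr1b difference in LeuB lost its sign, at 0, in the mean of its 2 probes, which disagree, the second being dim (mean 6.92). Centring each array on its median raised all differences from WT, by 0.0646 in LeuB and 0.0633 in LeuA. That setting ended the LeuB calls of Npm1, Heatr1 and Polr1b and the LeuA call of Utp20. Ddx10 then passed as higher in LeuB. The E-box count in promoters was 7 in the whole window, which adds the 50 bases after the start. The cause of the other moves was not tested. Slide 1 alone has 1 LeuB array, assumed to vary like the other groups. Slide as a block reads LeuB from that same array. In both settings, slide and the loss of LeuB 2 and LeuB 3 cannot be told apart.

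Replicate numbers do not pair the samples here. With the replicate block, 2 members were higher and 21 lower in LeuB against WT, 1 and 20 in LeuA against WT, and 1 and 3 in LeuB against LeuA, so the replicate block moved none of these counts of members by over 1.5 times. Among the counts against WT of other gene lists, it left 1 RNA polymerase III subunit higher in LeuA (2 without it), 2 ribosomal protein genes higher in LeuB (4) and 3 lower in LeuA (5), and among the polymerase I members 1 lower in LeuB (2). It ended the LeuB call of Polr1b (adjusted p = 0.074) and gave one for Ltv1 in LeuA (adjusted p = 0.031). Of the 9 arrays, 4 correlated best with an array of their own number elsewhere. With 3 arrays a group and a median residual SD of 0.112 among genes, small differences such as those of Polr1b and Npm1 in LeuB lie near the threshold.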
